A study of Mus musculus with 2 samples.

Results

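The genes examined were 8 genes of cholesterol synthesis and its control in mouse embryonic stem (ES) cells. They are the enzyme genes Hmgcs1, Idi1, Fdps, Sqle, Lss and Dhcr7 and the regulator genes Srebf2 and Insig1. They were taken by name, as every probe set of the array whose annotated symbol was exactly 1 of these. This gave 10 of 45118 probe sets, and 8 of the 16563 genes with a usable value. Of the 8 genes, 6 had 1 probe set, while Idi1 and Srebf2 had 2 probe sets each.

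A pair of groups was compared, with 1 Affymetrix array each. The H2A.B knockdown ES cells carried a pMSCV-neo retrovirus with a short-hairpin RNA against the histone variant H2A.B, made from a U6 promoter. The control knockdown ES cells carried the same kind of virus with a control sequence. Cells of both groups grew on gelatin without feeder cells, in medium with serum and the leukaemia inhibitory factor product ESGRO, and were under G418 for 2 to 4 weeks. From each, 2 µg of total RNA was used. The labels do not say whether the cells were a pool or a clone, and do not explain the number 1 in the knockdown sample's title. With 1 array per group no test and no replicate error could be given, and every difference describes these arrays alone. H2A.B genes were named by 0 probe sets, so the depletion was not checked here. All 7 ES cell markers measured had a mean above 6.73 (log2 intensity), the median over genes. So did 3 of the 6 fibroblast markers. Pou5f1, which encodes Oct4, had 12.64 on the knockdown array and 12.65 on the control array. In the same order Esrrb had 11.47 and 11.14, Klf4 11.30 and 11.14, Nanog 11.69 and 11.79, and Sox2 12.41 and 12.38. Of the fibroblast markers, Col1a1 had 8.01 and 7.77, Col3a1 7.73 and 7.66, Thy1 6.78 and 6.71, and Lum 4.05 and 4.14. The 7 ES cell markers differed by -0.09 to 0.33 and the 6 fibroblast markers by -0.09 to 0.25. A share of other cells was not tested.

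Cholesterol is built from acetyl-CoA through mevalonate, isoprenoids and squalene, and the same early steps feed the isoprenoid units used for protein prenylation, dolichol and ubiquinone. Its genes are switched on together by SREBP-2, the product of Srebf2. When sterols are plentiful, Insig proteins hold SREBP-2 and its escort Scap in the endoplasmic reticulum. When sterols are scarce, the complex moves to the Golgi, proteases release the transcription factor, and it acts at sterol regulatory elements beside bound NF-Y and Sp1. Insig1 is itself a target of SREBP-2, which closes a feedback loop.

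The sequences before the start of 3 of these genes are shown to set the control regions of the member with the largest difference, of SREBP-2 itself and of the first enzyme side by side. Windows of 250 bases before the RefSeq start (build GRCm38.p6) were matched for 6 of the 8 genes, Insig1, Hmgcs1, Srebf2, Idi1, Lss and Dhcr7, and Dhcr7 had several starts. The Lss window lies before a start at position 76531605, inside the gene's annotated span, which begins at 76531565. All 3 windows shown are on the plus strand and lie at chr5:28071162-28071411 for Insig1, chr13:119690101-119690350 for Hmgcs1 and chr15:82147019-82147268 for Srebf2. Capitals mark every match, on either strand, to the sterol regulatory element core CACCCCAC or to a 9-letter form, TCACNCCAC, where N is any base. They also mark matches to the NF-Y box CCAAT and to the Sp1-type GC box GGGCGG. A match on the other strand appears as its reverse complement.
Insig1: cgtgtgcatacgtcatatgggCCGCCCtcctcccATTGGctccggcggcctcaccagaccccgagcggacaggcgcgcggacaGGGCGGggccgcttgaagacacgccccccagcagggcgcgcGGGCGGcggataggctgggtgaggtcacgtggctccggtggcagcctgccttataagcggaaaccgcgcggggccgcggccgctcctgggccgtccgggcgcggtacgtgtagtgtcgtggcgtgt
Hmgcs1: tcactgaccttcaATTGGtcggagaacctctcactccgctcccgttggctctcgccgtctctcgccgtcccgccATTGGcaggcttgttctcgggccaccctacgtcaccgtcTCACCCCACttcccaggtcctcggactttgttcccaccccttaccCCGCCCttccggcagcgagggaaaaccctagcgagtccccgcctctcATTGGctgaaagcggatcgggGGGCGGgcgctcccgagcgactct
Srebf2: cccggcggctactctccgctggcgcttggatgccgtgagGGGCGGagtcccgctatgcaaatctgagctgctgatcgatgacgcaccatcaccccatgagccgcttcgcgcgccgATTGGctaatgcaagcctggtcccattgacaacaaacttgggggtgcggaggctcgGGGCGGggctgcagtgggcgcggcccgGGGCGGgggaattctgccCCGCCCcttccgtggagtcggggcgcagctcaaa

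In the Hmgcs1 window the core stood at positions -136 to -129, counted from the first base before the start as -1. The 9-letter form, whose match here contains the core, began at -137. The core was found in 2.58% of all 32851 windows of this length. The 9-letter form, which need not contain the core, was found in 1.05%. Among the 6 member genes with a window, Hmgcs1 alone held either. Only exact strings were searched, so near matches, such as 1 in the Srebf2 window, are unmarked. An exact form of the element with 10 letters was in 0 of the members' windows and in 0.0731% of all windows. CCAAT was found in at least 1 window of all 6 genes, and in 33.8% of all windows. GGGCGG was likewise in all 6, and in 32.7% of all windows. The counts are per gene and the shares per window, so they are not directly comparable for Dhcr7, with its several windows. Hmgcs1 had 3 CCAAT boxes, Idi1 had 2, and Insig1, Srebf2 and Lss had 1 each. In Dhcr7 the 2 CCAAT boxes lay before a later start (chr7:143829964-143830213), and the window before its first start held 1 GC box and no CCAAT. Another Dhcr7 window, chr7:143823149-143823398, held no match to any of these strings. The windows of Insig1 and Lss were 72.8% and 73.6% G and C, and that of Idi1 was 51.2%. These are matches of letters, and binding was not measured.

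No member differed by 2-fold, or by 1.5-fold, between the arrays. Among all 16563 genes 4.04% differed by at least 2-fold, 1.13% higher and 2.91% lower on the knockdown array, and 9.23% by at least 1.5-fold, and 8 genes are too few for a count of 0 to be read against those shares. On each gene's brightest probe set, 5 members were higher and 3 lower on the knockdown array, with a median difference (knockdown minus control, log2) of 0.03. Over all genes, 7833 were higher and 8674 lower, with a median of -0.0056. Differences ran from -0.21 for Dhcr7 to 0.54 for Insig1, and 7 of the 8 lay within 0.5. The cells were measured in bulk, so a lower level in every cell and fewer cells with the transcript cannot be told apart.

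**Figure D1:**
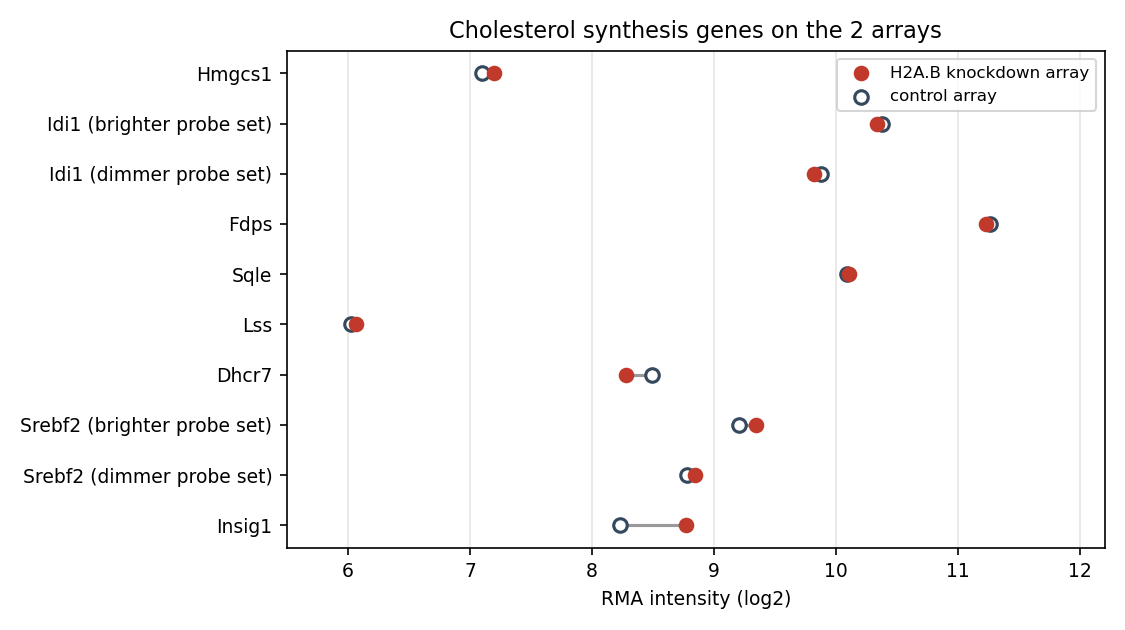
RMA intensity (log2, x axis) of the 10 probe sets of the 8 genes on the H2A.B knockdown array (filled) and the control array (open), 1 array per group and so without error bars. The pairs nearly coincide except for Insig1, at 8.77 on the knockdown array and 8.23 on the control array, and Dhcr7, at 8.28 on the knockdown array and 8.49 on the control array; intensities of different probe sets are not comparable with each other.

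Where a probe set stands in the deposited table bears on how a difference reads. In the rows from 18185 to 33642 part of the control values repeat a value from a nearby row, and these rows are called the middle section; the rows before and after are the first and last sections. A filter was set at the median of mean intensity over genes, 6.73 on the log2 scale. Probe sets past it differed, regardless of sign, by a median of 0.05 where they lay in the first section, whereas that median was 0.14 for the middle one and 0.15 for the last. A 1.5-fold difference was reached by 1.51%, 9.85% and 7.97% of them in that order of sections. The members have 5 probe sets in the first section, Hmgcs1 and Dhcr7 are read from the middle one, and 3 more probe sets belong to the last. None of their values was a repeat. Lss was the only member below the filter.

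The enzymes are taken in the order of the pathway. Hmgcs1, which condenses acetyl-CoA with acetoacetyl-CoA to HMG-CoA, had 7.20 on the knockdown array and 7.10 on the control array, a difference of 0.10. This probe set is in the middle section, where 59.6% of the 3846 probe sets past the filter differed by at least as much in either direction. The Hmgcs1 difference was thus smaller than most in its section.

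Idi1 encodes the isomerase that turns isopentenyl diphosphate into dimethylallyl diphosphate. Its brighter probe set had 10.33 on the knockdown array and 10.38 on the control array (-0.04), and the dimmer had 9.82 on the knockdown array and 9.88 on the control array (-0.06). The probe sets lie in the first and last sections, and their differences were 0.01 apart. For 1202 such pairs, 1 probe set of a gene in the first section and 1 in the last, the median gap was 0.08. Idi1 thus read alike on both its probe sets, with a slightly lower value on the knockdown array each time.

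Fdps makes farnesyl diphosphate, the branch point between sterols and the other isoprenoids. It had 11.22 on the knockdown array and 11.26 on the control array, a difference of -0.04. Sqle, the squalene epoxidase and a rate-limiting step of the later pathway, had 10.10 on the knockdown array and 10.08 on the control array, a difference of 0.02. Both probe sets are in the first section, where 57.6% of probe sets past the filter differed by at least as much as Fdps and 75.6% by at least as much as Sqle. Lss, the cyclase that forms lanosterol, had 6.07 on the knockdown array and 6.03 on the control array, a difference of 0.04 at low intensity.

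Dhcr7 carries out the last reduction, of 7-dehydrocholesterol to cholesterol, and was the lowest of the members. Its level was 8.28 on the knockdown array and 8.49 on the control array, a difference of -0.21, or 1.16-fold lower. In its section, the middle, 35.4% of probe sets past the filter differed by at least as much. The distance between the arrays for Dhcr7 was therefore an ordinary one for that part of the table, and no other probe set was there to set beside it.

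The regulators were both higher on the knockdown array. Srebf2 had 9.34 on the knockdown array and 9.20 on the control array on its brighter probe set, a difference of 0.14, and its dimmer one had 8.85 on the knockdown array and 8.78 on the control array, a difference of 0.07. The brighter is in the first section, where 14.1% of probe sets past the filter differed by at least as much, and the dimmer in the last, where 70.4% did. Both Srebf2 probe sets were thus slightly higher on the knockdown array, and the gap between them, 0.07, was near the median gap of 0.08 for such pairs.

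Insig1, the endoplasmic reticulum protein that retains Scap, showed the largest difference of the 8 genes. Its single probe set had 8.77 on the knockdown array and 8.23 on the control array, a difference of 0.54, or 1.45-fold higher. It lies in the last section, where 9.55% of the 3677 probe sets past the filter differed by at least as much in either direction. For scale, the standard deviation of the difference among probe sets of 1 gene had a median of 0.05 over 2556 genes, a technical spread within these arrays and no measure of variation between cultures. The Insig1 value has neither another probe set nor another array beside it.

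**Figure D2:**
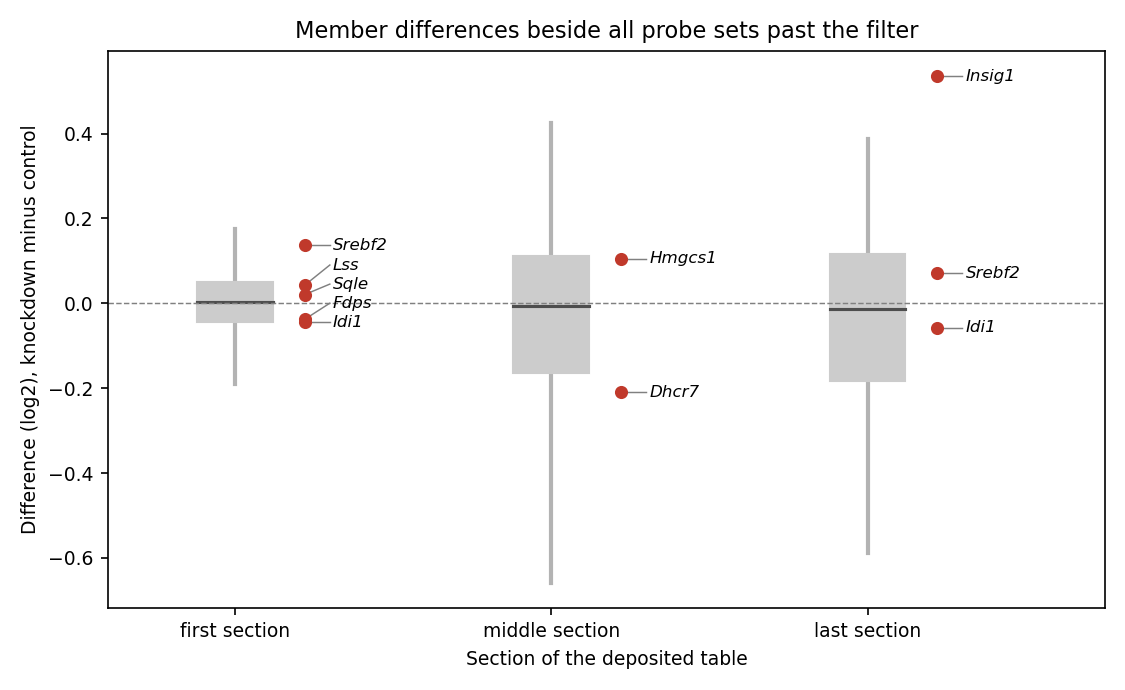
Difference between the arrays (log2, knockdown minus control, y axis) of the members' 10 probe sets (red points, 1 value each) beside the probe sets past the intensity filter in each section of the deposited table (box, 25th to 75th percentile; line across, median; bar, 5th to 95th percentile). Insig1, at 0.54, lies above the 95th percentile of its section, 0.39, and the other members lie inside the bars.

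The other cholesterol synthesis enzymes ran from -0.41 to 0.13 on their brightest probe sets, and the member enzymes from -0.21 to 0.10. Of 22 enzymes listed, 18 were named by a probe set and 17 had a usable value, the 6 member enzymes among them. Of the 17, 0 reached 1.5-fold, against 9.23% of all genes, dim ones included, but 16 of the 17 passed the intensity filter. Of the 8282 genes past it, 149 were at least 1.5-fold higher and 318 lower. In the first section these counts were 16 and 46 of 4920. So few listed genes do not let a count of 0 be read against these shares. On the knockdown array 7 of the 17 were higher and 10 lower, with a median difference of -0.02. That median was 0.0076 when each gene took the median of its probe sets. The 11 that are not members had 4 higher and 7 lower, also with a median of -0.02.

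The lowest of the enzymes was Sc5d, the sterol C5-desaturase, with 12.70 on the knockdown array and 13.12 on the control array (-0.41). Its dimmer probe sets went the other way, with differences of 0.27 and 0.91, so the Sc5d probe sets disagreed in sign. Hsd17b7, a ketoreductase of C4 demethylation, had 11.88 on the knockdown array and 12.06 on the control array (-0.17), with -0.39 and -0.0015 on its dimmer probe sets. Ebp, the sterol isomerase, had 8.86 on the knockdown array and 8.99 on the control array (-0.13). Cyp51, the lanosterol demethylase, which was singled out after its values were seen, was higher on each of 3 probe sets. The brightest had 9.07 on the knockdown array and 8.95 on the control array (0.12), and the others differed by 0.20 and 0.30. Enzymes that act after lanosterol thus lay on both sides of 0.

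**Figure D3:**
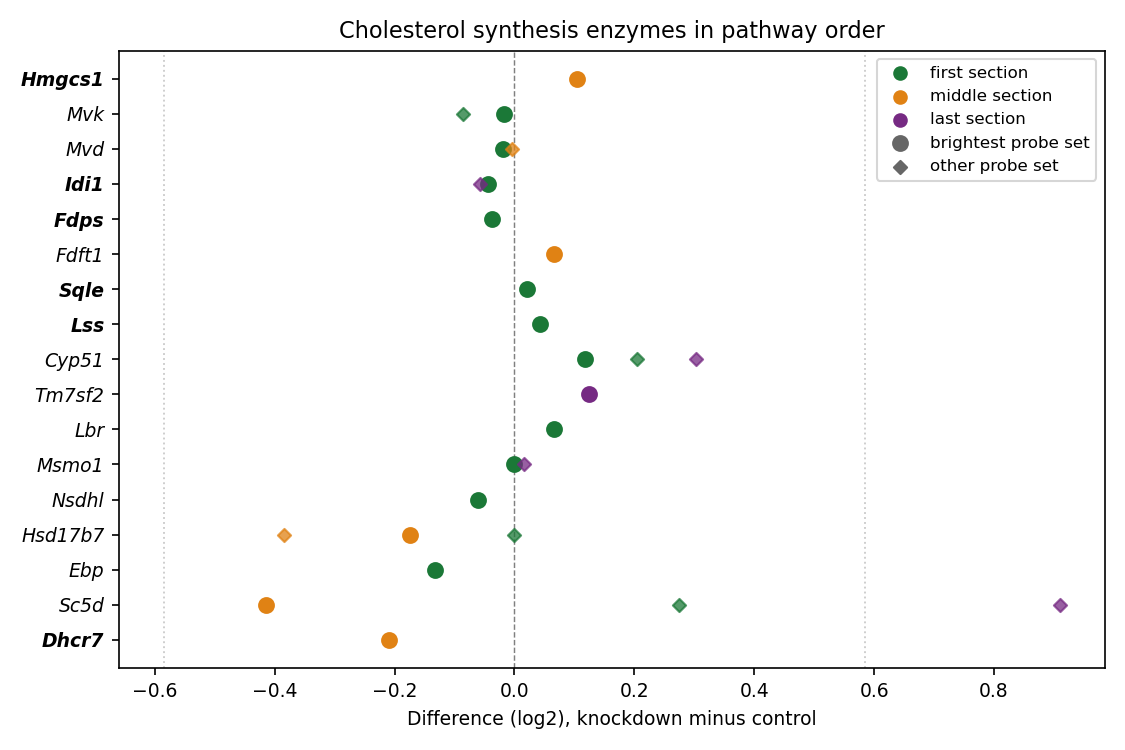
Difference between the arrays (log2, knockdown minus control, x axis) for the 17 cholesterol synthesis enzymes with a usable value, in pathway order from top to bottom, members in bold. Large circles are the brightest probe set of a gene, diamonds its other probe sets, colours the section of the table, and dotted lines 1.5-fold. All circles lie within 1.5-fold, from -0.41 for Sc5d to 0.13 for Tm7sf2, and 1 diamond of Sc5d lies beyond it at 0.91.

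The wider set of SREBP and sterol-sensing genes had 10 usable genes of 16 listed, Srebf2 and Insig1 included. Of these, 7 were higher and 3 lower, with a median difference of 0.02, and 9 passed the filter. At 1.5-fold there were 0, against 9.23% of all genes and, past the filter, 149 higher and 318 lower of 8282. These 10 genes are too few for that 0 to be read against the shares. Mbtps1, the site-1 protease that makes the first cut in SREBP, had 10.39 on the knockdown array and 10.55 on the control array (-0.16). Of its dimmer probe sets, 1 had 5.95 on the knockdown array and 7.35 on the control array (-1.40) and the other differed by 0.25, so its probe sets also disagreed. Nr1h3, the oxysterol receptor LXR alpha, had 5.28 on the knockdown array and 5.12 on the control array (0.16), below the filter. The direct partners of the members, named after their values were seen, were close on both arrays. Scap had 8.94 on the knockdown array and 8.85 on the control array (0.09). Insig2, the relative of Insig1, had 7.99 on the knockdown array and 8.02 on the control array (-0.02), with -0.08 and -0.03 on its other probe sets. None of the 3 probe sets of Insig2 reached the 0.54 of Insig1. However, the Insig2 and Scap probe sets lie in the first section, where the median difference regardless of sign was 0.05. Insig1 lies in the last section, where that median was 0.15. The genes were thus read from unlike parts of the table, and a contrast between them was not tested.

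Genes of cholesterol uptake, storage and efflux had 10 usable genes of 16 listed, 5 higher and 5 lower, with a median of 0.01. The filter was passed by 9 of them. At 1.5-fold there were 0, against 9.23% of all genes and, past the filter, 149 higher and 318 lower of 8282. These 10 genes, too, are too few for that 0 to be read against the shares. Lrp1, a large endocytic receptor, had 6.28 on the knockdown array and 6.77 on the control array (-0.49), and 0.05 on its dimmer probe set. Vldlr, a lipoprotein receptor, had 12.11 on the knockdown array and 11.81 on the control array (0.30), while its 4 other probe sets ran from -0.90 to 1.26. Npc2, which carries cholesterol out of lysosomes, had 12.19 on the knockdown array and 12.34 on the control array (-0.15), with -0.23 and 0.94 on its other probe sets. Stard3, a late-endosomal sterol carrier, differed by 0.09. In 3 of these 4 genes the probe sets differed in sign.

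Fatty acid synthesis genes that SREBP factors also control had 12 usable genes of 13 listed. On their brightest probe sets 11 were higher and 1 lower, with a median difference of 0.07, whereas of all genes 7833 were higher and 8674 lower. Some of the 11 lay near 0, among them Acss2 at 0.002 and Scd1 and Elovl6 at 0.02. The split also depends on the choice of probe set, since Acaca had 0.08 on its brightest and -0.49 on its other. These genes were named after their values were seen. The median was 0.03 when each gene took the median of its probe sets and 0.05 in the first section alone. At least 1.5-fold higher were 2 of the 12, against 2.98% of all 16563 genes and 149 of the 8282 past the filter. The 2 genes, Acacb and Acsl3, were read from the middle and last sections. There 70 of 1695 and 63 of 1667 genes past the filter were at least 1.5-fold higher. At least 1.5-fold lower were 0, against 6.24% of all genes and 318 of those 8282. These 12 genes are too few for the counts of 2 and 0 to be read against the shares. Acacb, the acetyl-CoA carboxylase of the mitochondrial surface, had 11.81 on the knockdown array and 11.18 on the control array (0.62), and on its other probe set 11.66 on the knockdown array and 11.09 on the control array (0.57). The probe sets of Acacb lie in the middle and first sections and gave nearly the same difference. Acsl3, an acyl-CoA synthetase of lipid droplets, had 10.06 on the knockdown array and 9.45 on the control array (0.61), but -0.51 and -0.49 on its dimmer probe sets. Elovl5, an elongase of polyunsaturated fatty acids, differed by -0.32, with -0.13 on its other probe set, and Me1, the cytosolic malic enzyme that supplies NADPH, by 0.11 and by 0.06 on its other probe set. Apart from Acacb, Acsl3 and Elovl5 the differences in this list were 0.11 or smaller on the brightest probe sets.

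The isoprenoid branch, which starts from the product of Fdps or its precursors, had 10 usable genes of 12 listed, 2 higher and 8 lower, with a median of -0.07. With probe sets without a suffix that median was -0.33, over 8 genes. At least 1.5-fold lower were 6.24% of all genes, and 318 of the 8282 past the filter. In the middle section this held for 152 of 1695 genes past the filter. At least 1.5-fold higher were 0 of the 10, against 2.98% of all genes and 149 of those 8282. These 10 genes are too few for such counts to be read against the shares. Of the 10, 1 was at least 1.5-fold lower, read from the middle section. That gene, Pdss2, a subunit of the enzyme that makes the ubiquinone side chain, had 6.95 on the knockdown array and 7.79 on the control array (-0.84), and 0.0025 on its other, dimmer probe set. Nus1, a dolichol synthesis subunit, had 9.48 on the knockdown array and 9.94 on the control array (-0.46), while its 3 other usable probe sets ran from -0.05 to -0.01. Fnta, a prenyltransferase subunit, differed by -0.39 on a dim probe set, and Coq2, which attaches the side chain to the ubiquinone ring, by -0.28. These 4 genes were read from all 3 sections. Each of these lists was drawn up with earlier results from these arrays known.

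**Figure D4:**
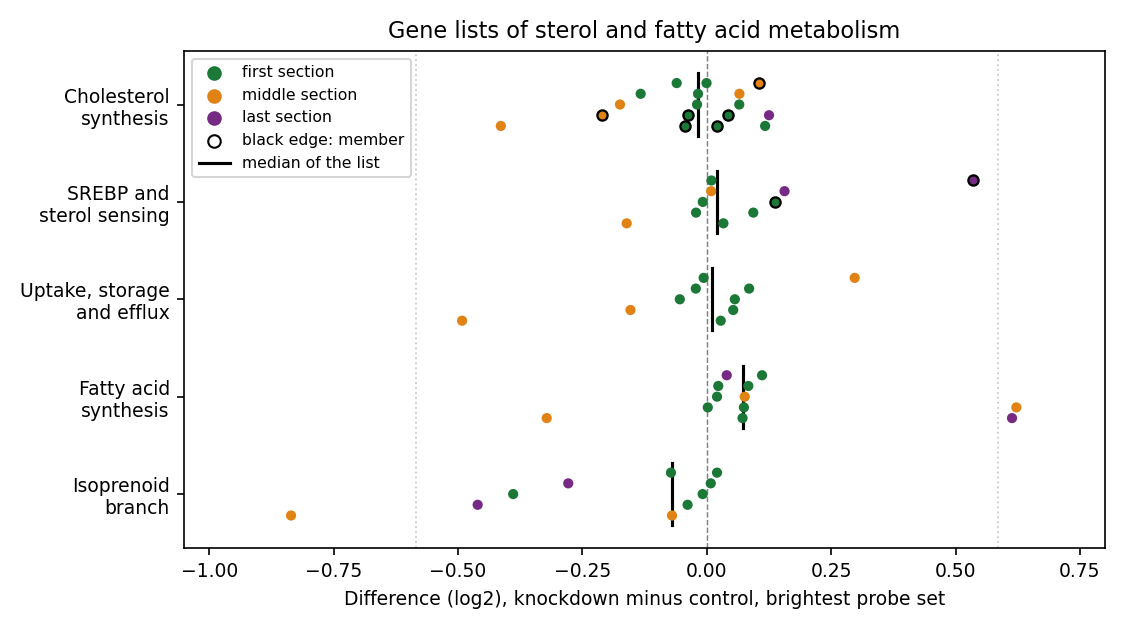
Difference between the arrays (log2, knockdown minus control, x axis) on the brightest probe set of each gene of 5 lists, 1 point per gene, coloured by section of the table; black edges mark the members, upright bars the median of each list and dotted lines 1.5-fold. Medians lie between -0.07 for the isoprenoid branch and 0.07 for fatty acid synthesis, and 3 genes pass the dotted lines: Acacb, Acsl3 and Pdss2.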

How the data were processed

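Each culture's RNA was measured on 1 Affymetrix array. The deposited table gives log2 values for the control array, made by the authors with RMA per the submitters' processing notes, version not given; the log2 scale was read from the values. The deposited knockdown column is a score in that it mixes such values with others: 616 values between rows 2054 and 4710 rise by exactly 1, and 2 more exceed 20. Those 618 were left out, as were 1455 control values that equal a value up to 20 rows above. Genes were named from the platform annotation, with symbols updated to GRCm38.p6 where the identifier matched; 28898 probe sets named 1 gene. A gene took its probe set with the highest mean. Every member probe set is reported. The other genes named are the up to 4 with the largest differences in each of 7 lists, any at 1.5-fold, those the text marks, and Pou5f1 and Tm7sf2, chosen after their values were seen. Members and lists were chosen with earlier results of these data known; the motif TCACNCCAC and the runs on the first section alone were added after seeing them. Alternatives were other probe set rules, centring (median, or lowess with a fraction of 0.3), the repeats kept, a filter and a 1.5-fold rule. Arrays carry no read depth; their number sets the precision. The steps were tested on simulated data (Python 3.11.15, pandas 2.3.3, statsmodels 0.14.6).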

Additional observations from a re-analysis of the deposited data

How the results depend on the processing

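The 8 members kept their signs in every setting that gave them a value: repeats kept, the median over probe sets, probe sets without a suffix, median and lowess centring, and the first section alone, which holds no probe set of Insig1, Hmgcs1 or Dhcr7. The 6 members with 1 probe set had no repeat and no suffix. For them only the centring could change the value, so their signs under the other settings were fixed in advance. Insig1 ran from 0.53 to 0.54, Dhcr7 from -0.21 to -0.20 and Srebf2 from 0.10 to 0.14. Moves larger than the spread among probe sets of a gene, or of a count by over 1.5 times, were 4 of 180. Some of the 180 were fixed in this way and many were counts that stayed at 0, so that share does not measure robustness. With probe sets without a suffix the isoprenoid median was -0.33 over 8 genes. The fatty acid median was 0.03 with the median over probe sets and 0.05 in the first section alone, against 0.07. With a 1.5-fold rule in place of 2-fold, 2 fatty acid genes were higher and 1 isoprenoid gene lower, against 0 and 0. In the first section alone 1 SREBP and sterol-sensing gene, Mbtps1, was 2-fold lower. The median of the cholesterol enzymes turned to 0.0076 with the median over probe sets. No paired analysis was possible because each group has 1 array, and no array could be left out. Signal over background was not analysed, so dim values such as those of Lss are uncertain.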
